A study of Mus musculus with 4 samples.

Results

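The genes described here are 41 genes of inflammatory signalling: the interleukin-1 (IL-1), interleukin-6 (IL-6) and tumour necrosis factor (TNF) systems, chemokines and their receptors, the factors of the NF-kB pathway, sensors of microbes and tissue damage, and enzymes of prostaglandin synthesis. They were chosen by name for what they do, and all 41 were found among the 24421 genes of the count table. RNA was measured in cartilage of the superficial zone from the medial femoral condyle of 2 C57BL/6J mice, M04 and M05, taken 8 weeks after surgery. In each mouse 1 knee had sham surgery. The other had its medial meniscus destabilized (DMM), an operation that loosens the joint and leads to osteoarthritis, so each group holds 2 libraries. The sample labels give the genotype as wild type for both animals, while the design text of the series names the M05 samples KO without a gene, so M05 against M04 is reported as a difference between 2 animals. Titles and treatment fields set the groups, although the free-text description of each sham sample also speaks of a DMM knee. Age and sex are not stated in the labels.

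IL-1 and TNF bind receptors at the cell surface and release the NF-kB dimers from their inhibitor, and these dimers then switch on cytokine, chemokine and prostaglandin genes as well as the genes of their own inhibitors. In cartilage this pathway is known for driving the loss of matrix in osteoarthritis, through proteases and nitric oxide, while many of the same genes are expressed at rest by neutrophils, monocytes and their precursors in marrow. In a bulk library, fewer cells of a type and less RNA per cell cannot be told apart.

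The libraries held between 12712358 and 19336534 counts. Chondrocyte markers were present (all 10 counted in every library), with a summed level of 5376 and 6364 CPM (TMM-normalised counts scaled to library size) in the sham and DMM knee of M04 and 1422 and 4874 CPM in those of M05. Markers of neutrophils and marrow granulocytes exceeded them in all 4 libraries, at 39578, 39497, 66010 and 56844 CPM in the same order. Erythroid markers had a larger sum still, at 150534, 118553, 205402 and 158663 CPM. The sham library of M05 stood apart from the other 3 by its low chondrocyte sum.

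NF-kB dimers recognise the kappa-B motif, and the promoters of several members carry it. RefSeq promoter windows (build GRCm38.p6, 250 bases before to 50 after a gene's start) were found for 30 of the 41 members. The kappa-B consensus, a motif of 10 letters searched on both strands, occurred in 9 of these 30 genes (Il1r1, Il6, Ccl9, Cxcl1, Cxcl2, Nfkb2, Nfkbia, Tnfaip3 and Tlr2), and in 5.14% of the 27025 genes with a window (4.51% of 32851 windows). The 6 stretches below are shown because these genes are known NF-kB targets of 2 kinds, parts of the pathway's own feedback (Nfkbia, Nfkb2 and Tnfaip3) and secreted ligands (Il6, Cxcl1 and Cxcl2). The first 3 were counted in every library, Il6 had 0 to 6 counts, and Cxcl1 and Cxcl2 are listed at 0, which may not be their level. Each runs 5′ to 3′ on the gene's strand, ends at or before the gene's start, and has the bases covered by a match in capitals, on either strand and with overlapping matches merged.
Nfkbia, chr12:55492648-55492706, minus strand: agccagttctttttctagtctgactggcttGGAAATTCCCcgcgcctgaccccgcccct
Nfkb2, chr19:46304696-46304736, plus strand: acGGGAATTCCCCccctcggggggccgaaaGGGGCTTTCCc
Tnfaip3, chr10:19015411-19015452, minus strand: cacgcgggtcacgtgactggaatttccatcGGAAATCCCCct
Il6, chr5:30013040-30013109, plus strand: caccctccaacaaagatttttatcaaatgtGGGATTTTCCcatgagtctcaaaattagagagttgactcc
Cxcl1, chr5:90891145-90891214, plus strand: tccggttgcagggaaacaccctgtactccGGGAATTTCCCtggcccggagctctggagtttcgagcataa
Cxcl2, chr5:90903773-90903842, plus strand: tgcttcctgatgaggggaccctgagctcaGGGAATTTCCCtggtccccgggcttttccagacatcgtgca

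Of the matches that lie before the start of the window shown, the nearest began 29 bases before it in Nfkbia, 11 in Nfkb2, 12 in Tnfaip3, 44 in Il6, 70 in Cxcl1 and 96 in Cxcl2. Such a match describes the letters of the window and does not show that a factor is bound there.

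Listed values of the members ran from 0 to 245 FPKM. Per transcript length, on the scale of the deposited FPKM, the chemokine gene Ccl6 was highest, with 142 to 245 FPKM over the libraries, and its range did not overlap that of any other member. Next came the chemokine receptor Cxcr4 (46.0 to 64.2), the TNF receptor Tnfrsf1a (54.8 to 58.1), the neutrophil receptor Cxcr2 (41.7 to 54.6) and the T cell chemokine Ccl5 (38.4 to 60.8). The ranges of these 4 overlapped, except that Tnfrsf1a lay just above Cxcr2 in every library. The prostacyclin synthase Ptgis (35.6 to 41.3) and the NF-kB inhibitor Nfkbia (33.5 to 39.8) followed. Below them the range overlapped from each member to the next, through the decoy receptor Il1r2 (23.8 to 42.9), the adaptor Myd88, Ccl9, Rela, Il1rn, Nfkb1, Ccr2 and Ptgs1 to Tnfrsf1b (13.6 to 16.5). Nfkb2 (8.24 to 9.66) lay below all of these without overlap.

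Among the cytokine genes of the IL-1, IL-6 and TNF systems, Il1b had 6.54 to 10.8 FPKM, which overlapped the range of Nfkb2. It lay below Nfkb2 in both knees of M04 and above it in both knees of M05. The other cytokine genes were lower, with Il1a at 0.793 to 1.35 and Tnf at 0.650 to 1.23. Il6 was listed at 0 to 0.469 FPKM, and Lif, a cytokine of the IL-6 family, at 0 to 0.0588. In each of the 3 systems a receptor or antagonist was thus higher per length than the ligand in every library. In the IL-1 system these were the decoy receptor Il1r2 and the antagonist Il1rn. The signalling receptor Il1r1 (0.330 to 0.932 FPKM) lay below both Il1a and Il1b in every library.

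**Figure D1:**
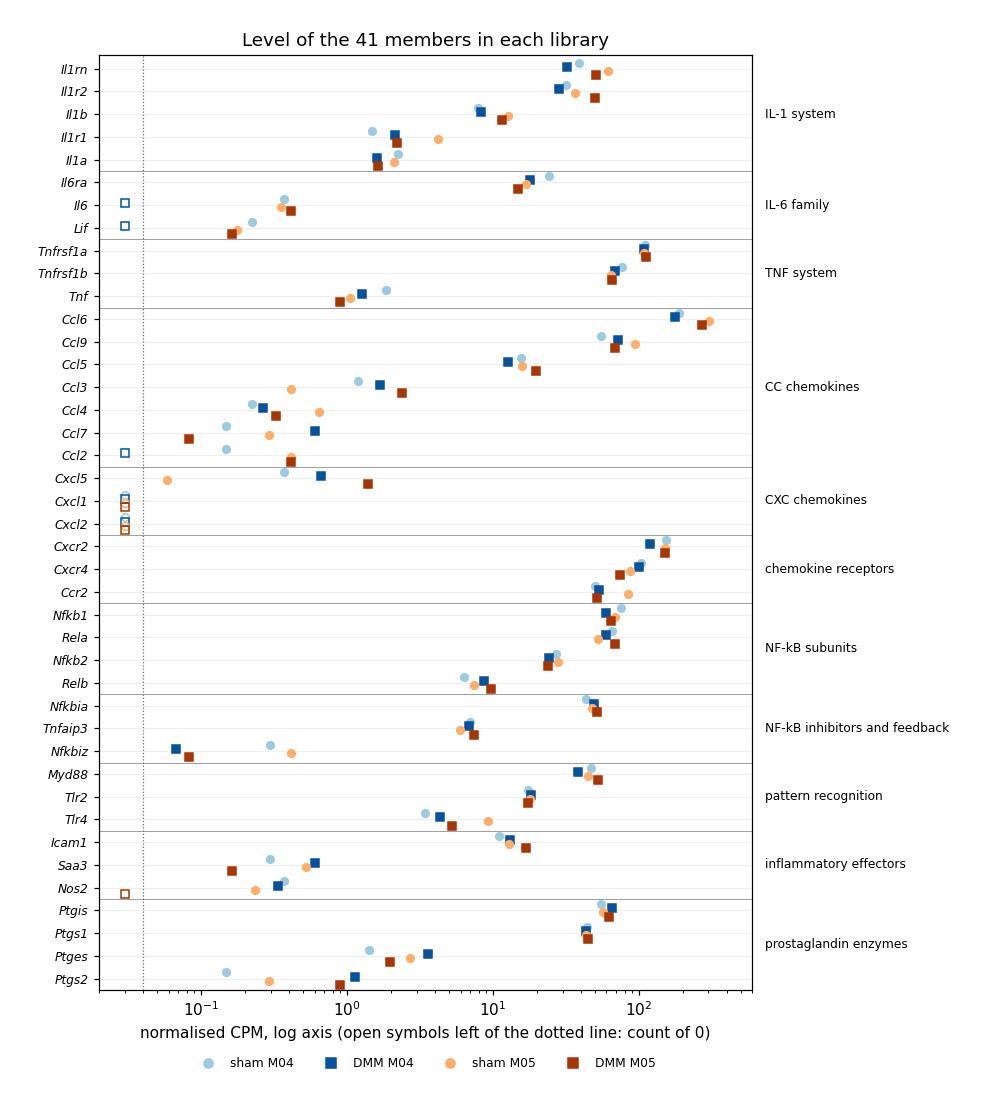
Normalised CPM of each of the 41 members in the 4 libraries, on a log axis, grouped by role and ordered by mean level within a role. Circles are sham and squares DMM knees, blue for M04 and orange for M05, and open symbols mark a count of 0. Ccl6, Cxcr2, Tnfrsf1a and Cxcr4 lie at the top, and Il6, Lif, Nos2, Nfkbiz, Saa3, Ccl2, Ccl4 and Ccl7 lie below 1 CPM in every library. Cxcl1 and Cxcl2 are listed at a count of 0, which may not be their level.

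The first comparison asked whether these genes differ between DMM and sham knees, and no member passed the test. Of the 41 members 30 were counted highly enough to be tested, and 0 of these were higher or lower past an adjusted p of 0.05 by edgeR's quasi-likelihood test with the mouse as a block. Over all 13103 genes tested, 0.649% passed. The smallest adjusted p of a member was 0.878, for Ptgs2. At an unadjusted p under 0.05 there was 1 member, Ptgs2, against 5.2% of all genes. DESeq2 and limma on FPKM also called 0 members, but they called few genes at all. DESeq2 called 12 of 17050 genes higher and 0 lower. On either FPKM scale limma called 0 of 11949 genes higher and 1 lower. The median log2 fold change was -0.030 over the 30 members and -0.010 over all genes tested, with 14 members above and 16 below 0.

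For most members the interval of the difference was narrow. In 23 of the 30 the 95% interval for DMM against sham lay within a doubling or halving, as it did for 9126 of the 13103 genes. These intervals take their spread from the trend across genes for most members and rest on 2 mice.

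Within the IL-1 system, Il1b, which encodes the main secreted IL-1 of myeloid cells, had 7.85 CPM in the sham and 8.29 CPM in the DMM knee of M04, and 12.7 and 11.6 CPM in those of M05. The sham library of M05 was the highest, the sham and DMM groups overlapped, and the difference was -0.033 on the log2 scale (SE 0.27, 95% interval -0.57 to 0.50). Il1rn, which encodes the secreted receptor antagonist, had 38.7 and 32.0 CPM in the sham and DMM knee of M04 against 61.9 and 50.7 CPM in those of M05. Its DMM knee was the lower one in each mouse, but the groups overlapped and the difference of -0.28 (SE 0.17, 95% interval -0.61 to 0.045) did not pass (adjusted p = 1.0). Of the 5 IL-1 genes, 4 had negative fold changes. Il1a, the cell-bound form of IL-1, had 30 and 24 counts in M04 and 36 and 20 counts in M05, with its DMM libraries below its sham libraries (-0.41, SE 0.62).

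In the IL-6 family only Il6ra, the ligand-binding chain of the IL-6 receptor, was tested. It had 24.1 and 18.1 CPM in the sham and DMM knee of M04 and 16.8 and 14.9 CPM in M05, with a log2 difference of -0.30 (SE 0.21). The DMM knee was lower in each mouse, but sham and DMM values overlapped across the mice. Il6 itself had 5 counts (sham) and 0 counts (DMM) in M04, and 6 and 5 counts in M05. The ratio of DMM to sham had a counting interval of 0 to 0.985 in M04, of 0.282 to 4.59 in M05 and of 0.139 to 1.60 over both mice, so the pooled counts did not separate the operations at this depth.

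None of the 3 genes of the TNF system passed. Tnfrsf1a, the receptor that most cells carry, had 109.4 and 107.9 CPM in M04 and 108.0 and 112.2 CPM in M05. Its 4 values lay within a narrow band, and the log2 difference was 0.018 (SE 0.15, 95% interval -0.28 to 0.32). Tnf had 25 and 19 counts in M04 and 18 and 11 counts in M05, which is 0.903 to 1.85 CPM, with a wide interval from -1.85 to 1.07. Tnfrsf1b, the receptor of leukocytes, differed by -0.064 (SE 0.16).

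Among the CC chemokines, which attract monocytes, T cells and granulocytes, the 4 tested members had log2 differences from -0.13 to 1.44. Ccl6 had 188 and 177 CPM in the sham and DMM knee of M04 and 305 and 271 CPM in M05, a difference of -0.13 (SE 0.15). Its values separated by mouse and not by surgery. Ccl3 (MIP-1 alpha) had 16 and 25 counts in M04 and 7 and 29 counts in M05. Its DMM libraries were both above both sham libraries, yet the difference of 1.44 (SE 0.75, 95% interval -0.038 to 2.91, adjusted p = 0.994) did not pass. The sham library of M05 was the lowest, and without it the difference was 0.76, in a fit without the mouse term. Ccl2, Ccl4 and Ccl7 had between 0 and 11 counts in every library and were not tested.

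The CXC chemokines recruit neutrophils through Cxcr2. Cxcl1 and Cxcl2 are listed at 0 counts in all 4 libraries, and so is their relative Cxcl3, which is no member. For counting error alone a count of 0 allows up to 0.176 CPM in the deepest and 0.246 CPM in the shallowest library. Neutrophil markers were abundant in the same libraries, and whether reads of these 3 related genes were lost in the authors' counting was not tested, so the zeros are not read as levels. Cxcl5 was counted, with 5 and 10 counts in the sham and DMM library of M04 and 1 and 17 counts in M05. Its DMM libraries were both higher, with a ratio of 1.81 in M04 (95% interval 0.562 to 6.73) and of 23.8 in M05 (3.73 to 995), intervals that cover counting error only. Cxcl5 was too low for the main test, and without a filter on low counts its adjusted p was 1.0. Their receptor Cxcr2, in contrast, was among the higher members, with 154 and 119 CPM in M04 and 151 and 152 CPM in M05 and a difference of -0.18 (SE 0.15). Only the DMM library of M04 was low, and the groups overlapped.

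No subunit or inhibitor of NF-kB passed either. Nfkb1, the gene of the p105 precursor and its p50 subunit, had 75.0 and 60.0 CPM in M04 and 68.8 and 64.4 CPM in M05, with both DMM libraries below both sham libraries (-0.21, SE 0.16, 95% interval -0.52 to 0.099). The other subunits, Nfkb2, Rela and Relb, differed by -0.20, 0.13 and 0.42 in turn, the last with the lowest level (6.37 to 9.77 CPM). The sham library of M05 was the highest for Nfkb2 (28.1 CPM) and the lowest for Rela (52.4 CPM). In a fit without that library and without the mouse term, the values were -0.18 for Nfkb2 and -0.022 for Rela. The log2 ratio of the DMM to the sham knee for Rela was -0.12 in M04 and 0.39 in M05. Nfkbia, which encodes the inhibitor that NF-kB itself induces, had 43.1 and 49.6 CPM in M04 and 48.1 and 51.8 CPM in M05. Both DMM libraries were above both sham libraries by a small margin, and the difference of 0.16 (SE 0.17, 95% interval -0.17 to 0.48) did not pass. Tnfaip3, another feedback inhibitor, also stood at 0.16 (SE 0.33) and was lowest in the sham library of M05 (5.92 CPM). Its value was 0.041 in the fit without that library and without the mouse term. Nfkbiz, a nuclear co-regulator of NF-kB, had 1 to 7 counts a library and was not tested.

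The sensors Tlr2 and Tlr4, for bacterial lipoproteins and endotoxin, and their adaptor Myd88 had log2 differences of 0.020, -0.27 and -0.027. Myd88 had 46.8 and 38.5 CPM in M04 and 44.6 and 52.1 CPM in M05, so the DMM knee was the lower one in M04 and the higher one in M05. Of the effectors, Icam1, the adhesion molecule that leukocytes bind on endothelium, had 11.0 and 13.1 CPM in M04 and 12.8 and 16.8 CPM in M05. Its DMM libraries were both higher (0.32, SE 0.24, 95% interval -0.15 to 0.79). Nos2, the inducible nitric oxide synthase, had 5 and 5 counts in M04 and 4 and 0 counts in M05, and Saa3, an acute-phase protein, had 2 to 9 counts a library.

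All 4 prostaglandin enzymes had positive fold changes, but none passed. Ptgs2, the inducible cyclooxygenase COX-2, had 2 counts (sham) and 17 counts (DMM) in M04, and 5 and 11 counts in M05. Both DMM libraries were above both sham libraries, with a ratio of 7.67 in M04 (95% counting interval 1.82 to 68.5) and 3.08 in M05 (0.987 to 11.3). The fitted log2 difference was the largest of any tested member, at 2.15 (SE 1.03, 95% interval 0.13 to 4.18, unadjusted p = 0.0369, adjusted p = 0.878). The constitutive cyclooxygenase Ptgs1 was far more abundant, at 43.3 to 45.2 CPM, and differed by 0.023 (SE 0.17). Ptgis had 55.4 and 65.4 CPM in M04 and 56.9 and 62.7 CPM in M05, with both DMM libraries higher (0.19, SE 0.16). Ptges, the inducible prostaglandin E synthase, had 1.41 and 3.61 CPM in M04 but 2.70 and 1.97 CPM in M05 (0.44, SE 0.56).

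**Figure D2:**
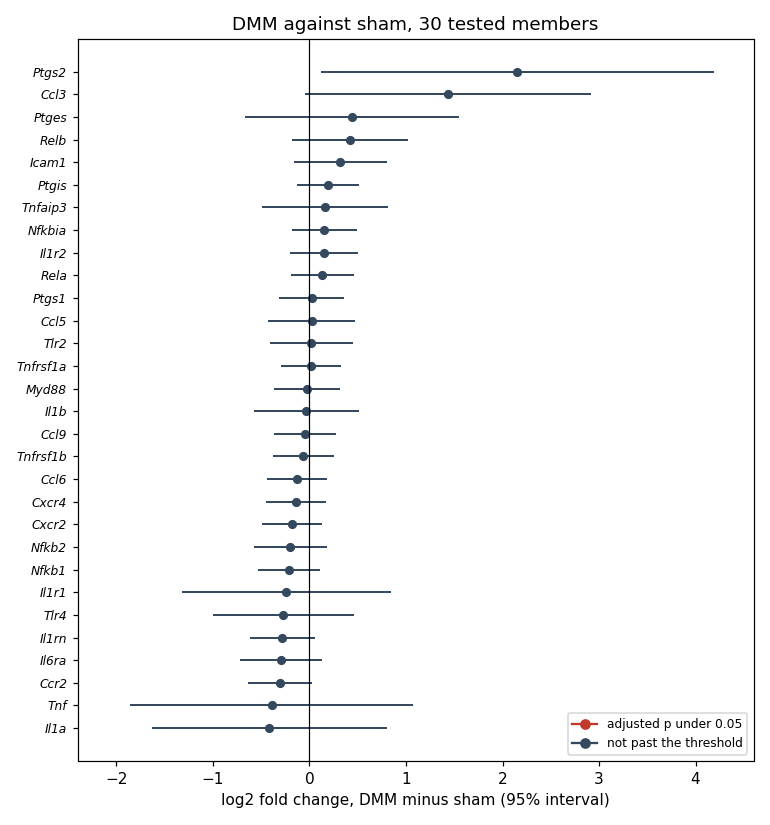
Log2 fold change of DMM against sham for the 30 tested members, ordered by value, with points for the fitted value and lines for the 95% interval. No member is past an adjusted p of 0.05. Ptgs2 at 2.15 and Ccl3 at 1.44 lie to the right with wide intervals, and the other 28 lie between -0.41 and 0.44.

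In all, 6 of the 30 tested members (Ccl3, Relb, Nfkbia, Icam1, Ptgs2 and Ptgis) had both DMM libraries above both sham libraries, and 3 (Il1a, Nfkb1 and Nfkb2) had both below. Over all genes tested the shares were 13.2% above and 12.3% below, which is near the members' counts. Leaving out any 1 library gave 0 called members as well, in fits without the mouse term. Among the cell-type markers, 7 of 10 chondrocyte and 2 of 7 fibroblast genes (Dpt at 2.09 and Clec3b at 2.19) were higher in DMM past the threshold, as were 83 of all 13103 genes tested, and 0 of the 10 neutrophil and 0 of the 10 monocyte and macrophage genes passed. Without the mouse as a block, or without the sham library of M05 or the DMM library of M04, 0 of all genes were called higher.

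The second question was whether the knees of the 2 mice moved alike, which 1 pair of libraries per mouse can describe but not test. The log2 ratio of the DMM to the sham knee had the same sign in both mice in 14 of the 30 members (46.7%), against 47.1% of all genes tested. There were 6 members positive in both, namely Ccl3, Relb, Nfkbia, Icam1, Ptgs2 and Ptgis, and 8 were negative in both. Over all 13103 genes tested, 3044 were positive and 3123 negative in both. The median ratio of the members was -0.018 in M04 and -0.015 in M05.

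The members with at least 1 CPM whose ratios differed most were Ccl3, Ptges, Il1r1, Tlr4, Ccl9 and Ccr2. Il1r1, the signalling receptor of IL-1, had 1.48 and 2.14 CPM in M04 and 4.22 and 2.22 CPM in M05, which is 0.49 in M04 and -0.89 in M05 as log2 ratios. Tlr4 had 3.41 and 4.35 CPM in M04 and 9.32 and 5.26 CPM in M05 (0.34 and -0.81). In both genes the sham library of M05 was the highest of the 4 and the sham library of M04 the lowest.

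The same library was the highest for Ccl9, a chemokine of myeloid cells, and for Ccr2, the receptor of inflammatory monocytes. Ccl9 had 55.1 and 71.9 CPM in M04 and 94.3 and 68.4 CPM in M05 (0.38 and -0.46), and Ccr2 had 49.8 and 53.2 CPM in M04 and 84.6 and 52.1 CPM in M05 (0.096 and -0.70). For Ccr2 the other 3 libraries lay within a narrow band of each other. The summed level of 10 monocyte and macrophage markers, all counted in every library, was 1552 and 1485 CPM in M04 and 1555 and 1601 CPM in M05, so it was not the highest in the sham library of M05. Other marker sums were highest there. Skeletal muscle had 147 and 399 CPM in M04 and 521 and 161 CPM in M05, higher in the DMM knee of M04 and lower in that of M05 like the 5 genes above other than Ccl3. The neutrophil sum (66010 CPM) and the erythroid sum (205402 CPM) also peaked in the sham library of M05. The part of these cells in the ratios was not tested. In a fit without the sham library of M05 and without the mouse term, the DMM to sham difference of Ccr2 was 0.079 in place of -0.30.

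**Figure D3:**
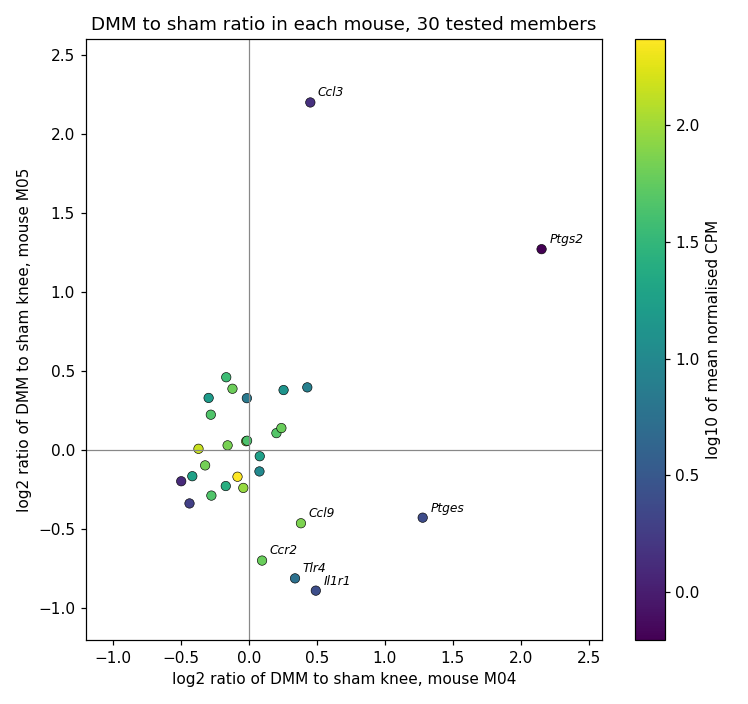
Log2 ratio of the DMM to the sham knee in mouse M04 (x axis) and mouse M05 (y axis) for the 30 tested members, coloured by mean level. Most points lie within 0.5 of 0 on both axes. Ccl3 and Ptgs2 are positive in both mice, while Ptges, Il1r1, Tlr4, Ccl9 and Ccr2 are positive in M04 and negative in M05.

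The third comparison set M05 against M04 with the surgery in the model, and 2 members differed, both higher in M05. They were Il1rn and Ccl6, which is 2 of 30 tested members, against 0.962% of all genes called higher in M05 and 2.6% called in either direction (126 genes higher and 215 lower, or 21 and 891 without scaling factors). Il1rn had 38.7 and 32.0 CPM in M04 and 61.9 and 50.7 CPM in M05. Both knees of M05 were above both knees of M04, by 0.67 on the log2 scale (SE 0.17, 95% interval 0.34 to 1.0, adjusted p = 0.00674). Ccl6, at 188 and 177 CPM in M04 and 305 and 271 CPM in M05, did the same by 0.65 (SE 0.15, 95% interval 0.35 to 0.95, adjusted p = 0.00261). Il1rn encodes the natural brake on IL-1, and Ccl6 a chemokine that rodent myeloid cells make.

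These p-values compare 2 animals, and for Il1rn and Ccl6 the fit used the spread that the trend gives at their level. Each gene's own scatter between the knees carried no weight in it. The calls held in some settings only. Without the surgery term the adjusted p was 0.125 for Il1rn and 0.0868 for Ccl6, with log2 differences of 0.67 and 0.66. Fits that leave out a library also lack the surgery term, so they change both. In them neither gene passed without the sham library of M04 (0.83 and 0.71, adjusted p = 0.775 each), the DMM library of M04 (0.53 and 0.61, adjusted p = 0.553 and 0.541) or the sham library of M05 (0.52 and 0.57, adjusted p = 0.182 and 0.0701), while both passed without the DMM library of M05.

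**Figure D4:**
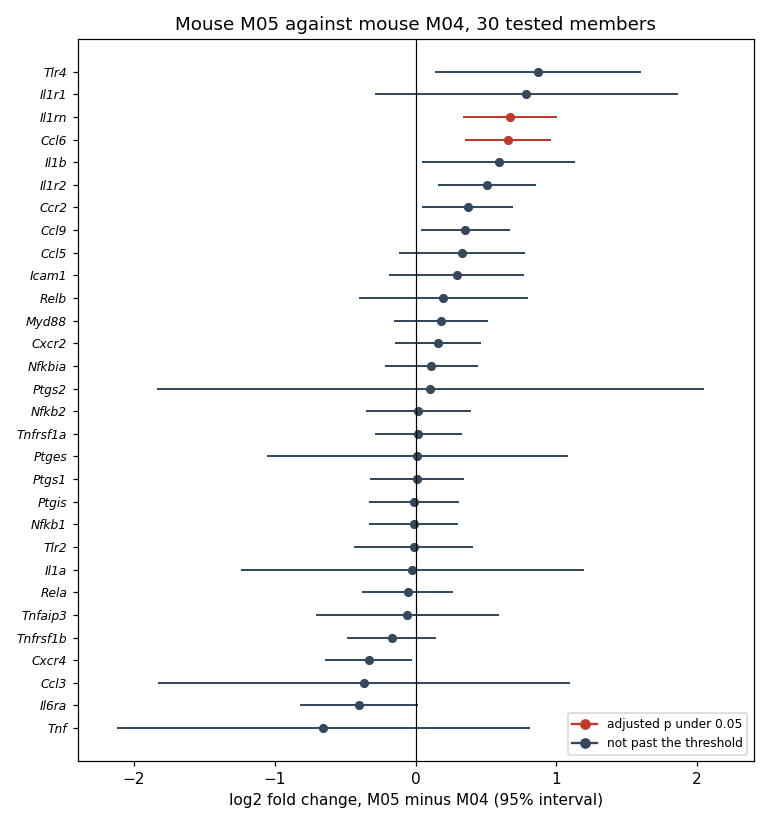
Log2 fold change of M05 against M04 for the 30 tested members, with points for the fitted value and lines for the 95% interval. Il1rn at 0.67 and Ccl6 at 0.65, in red, are the members past an adjusted p of 0.05, and Tlr4 and Il1r1 have larger values of 0.87 and 0.79 with wider intervals.

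Markers of neutrophils and marrow granulocytes were mostly higher in M05 as well. Of the 10 markers all were counted in every library, 9 had positive fold changes in M05, and 2, the calcium-binding proteins S100a8 (0.95) and S100a9 (0.88), were higher past the threshold. The other fold changes ran from -0.045 (Mpo) to 0.60 (Camp) and did not pass. Il1rn and Ccl6 were highest in the sham library of M05, as were S100a8, S100a9, Camp and Mmp8. Ngp, Ltf, Elane, Csf3r and Retnlg were highest in the DMM library of M05, and Mpo in the sham library of M04. The sum of all 10 markers was 39497 to 39578 CPM in M04 and 56844 to 66010 CPM in M05. Its largest parts in the sham library of M05 were S100a9 (21906 CPM) and S100a8 (16089 CPM). The monocyte and macrophage sum was 1485 to 1552 CPM in M04 and 1555 to 1601 CPM in M05, with 0 of its 10 markers past the threshold. Chondrocyte markers went the other way, with 8 of 10 lower in M05 past the threshold. Their sum was far lower in the sham library of M05 (1422 CPM) than in its DMM library (4874 CPM). The sums in the sham and DMM libraries of M04 were 5376 and 6364 CPM. The part of these markers in the values of Il1rn and Ccl6 was not tested.

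**Figure D5:**
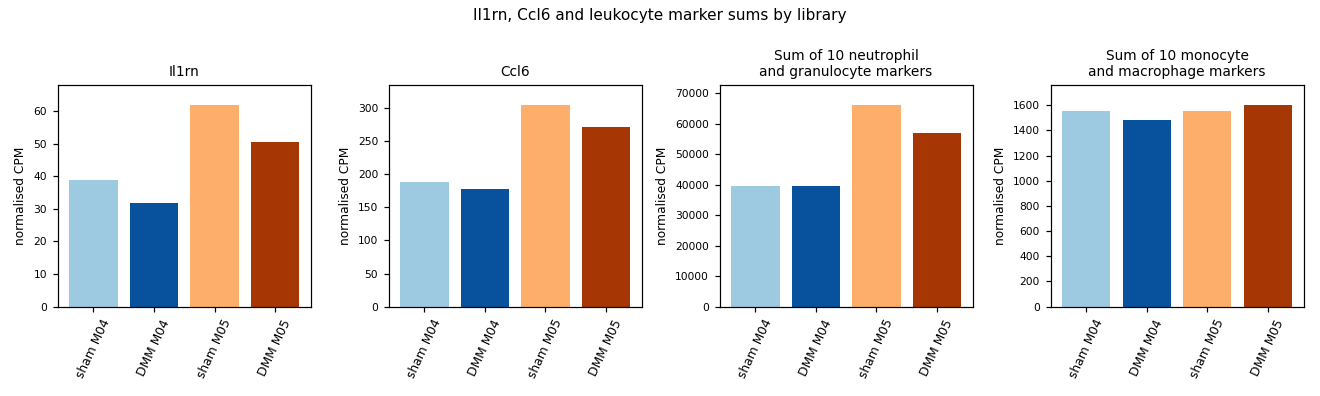
Bars from 0 give normalised CPM in the 4 libraries for Il1rn, Ccl6, the sum of 10 neutrophil and granulocyte markers and the sum of 10 monocyte and macrophage markers. The first 3 panels are higher in both libraries of M05 than in both of M04, with the sham knee of M05 highest, and the monocyte and macrophage sum runs from 1485 to 1601 CPM.

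Among the members that did not pass, Il1r2, the decoy receptor that neutrophils carry, had 31.9 and 28.4 CPM in M04 and 36.4 and 50.1 CPM in M05 (0.51, SE 0.17, adjusted p = 0.0917). Il1b differed by 0.59 (SE 0.27, adjusted p = 0.276) and Tlr4 by 0.87 (SE 0.37, adjusted p = 0.21). At an unadjusted p under 0.05 there were 8 of the 30 members, Il1rn and Ccl6 among them, of which Cxcr4 was lower in M05 (-0.33), against 14.3% of all genes. Both libraries of M05 lay above both of M04 in 7 members (Il1b, Il1rn, Il1r1, Il1r2, Ccl5, Ccl6 and Tlr4) and below in 4 (Il6ra, Tnf, Tnfrsf1b and Cxcr4), while over all genes tested the shares were 22.5% and 22.8%.

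Finally, 96 further genes of the same pathways were counted, in 7 lists of other IL-1, IL-6, TNF, NF-kB, chemokine, prostanoid and Toll-like receptor genes. Of these 85 were tested, and 0 passed for DMM against sham by edgeR, against 0.649% of all genes tested. At an unadjusted p under 0.05 there were 2, Lta and Ptges3, against 5.2% of all genes. Lta, which encodes lymphotoxin alpha, had 12 and 5 counts in M04 and 19 and 1 counts in M05 (-2.24, SE 1.05, adjusted p = 0.855). Ptges3, a co-chaperone with prostaglandin E synthase activity, had 29.0 and 34.8 CPM in M04 and 34.9 and 14.9 CPM in M05, so its low value was that of the DMM library of M05 (adjusted p = 0.683). Fold changes were negative in 13 of 15 tested genes of the IL-1 list, 3 of 9 of the IL-6 list, 5 of 11 of the TNF list, 5 of 9 of the NF-kB list, 9 of 16 of the chemokine list, 8 of 14 of the prostanoid list and 7 of 11 of the Toll-like receptor list. That is 50 of the 85 genes, with a median of -0.056, against 6833 of the 13103 genes tested.

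Between the mice 1 of the 85 passed, Ccl8, a chemokine that attracts monocytes, as lower in M05, where 215 of the 13103 genes tested were called lower. It had 10 and 22 counts in M04 and 0 and 1 counts in M05, a ratio of 0.0304 with a counting interval of 0.000747 to 0.182 (adjusted p = 0.0338). The call was kept in 2 of 11 other settings. Without the surgery term it did not pass (log2 difference -4.69, adjusted p = 0.145). In fits that lack both that term and 1 library, Ccl8 stood at -5.07 without the sham library of M04 and at -3.61 without the sham library of M05, with adjusted p-values of 0.775 and 0.301. Without the DMM library of M05 the remaining M05 library has 0 counts, so the fitted size is no measure, and the adjusted p was 0.118.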

How the data were processed

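Poly(A) RNA gave single-end reads with a length of 100 bases, per the labels' protocols. The submitters' processing notes name the build GRCm39. Aligner, counter and strand setting: not given in the sources used here. The deposited table holds estimated counts per gene, of which 9.21% to 10.9% were not whole, and 4 further columns of it were not used. The deposited FPKM values, scaled by the authors for length and depth, served for levels between genes and for alternatives.

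Counts were rounded and tested across all genes with edgeR 4.0.16 (R 4.3.3): filterByExpr, TMM, robust quasi-likelihood, mouse and surgery as terms, Benjamini-Hochberg over 13103 genes, threshold 0.05. Labels place both knees in 1 animal, so the mouse was a block, and same-mouse deviations correlated at 0.18. The fit has 1 residual degree of freedom, and for 83.0% of genes the spread came from the trend. SE is the fold change over the square root of F. CPM are TMM-normalised. Per-mouse ratios use a prior count of 2, without a test. DESeq2 1.42.0 and limma 3.58.1, the latter on log2(FPKM + 1) and log2(FPKM + 0.1) of genes with a mean of at least 0.5, were alternatives. The fit was tested on simulated data. Promoter coordinates are GRCm38.p6 and were not converted.

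Members and lists were chosen with earlier results of these data known. Values in every library are given for members past the threshold, the highest of each role, Il6, Tnf, Il1b, Ptgs2, Nos2 and the 6 members with at least 1 CPM whose ratios differed most between mice. Il1a, Il1r2, Lta and Ptges3 were added after their values were seen. The marker Cnmd was found under an older name. Sums of markers for fibroblasts (70.7 to 90.1 CPM), endothelium (107 to 138), skeletal muscle (147 to 521), erythroid cells (118553 to 205402), B cells (510 to 575) and T and NK cells (84.7 to 97.9) were also taken.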

Additional observations from a re-analysis of the deposited data

How the results depend on the processing

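The 0 called members for DMM against sham stayed at 0 in all 14 alternatives, in either direction, with a smallest adjusted p of 0.188 for Ccr2 without the sham library of M04. Where an alternative called 0 genes in either direction, as without the replicate block, 0 called members was fixed in advance. Of 411 alternative values 27 had another sign, over 18 members, and 12 members kept their sign throughout. All genes higher in DMM, 83 in the paired fit, were 0 without the replicate block, 12 by DESeq2, 35 with RLE size factors, 53 without TMM factors, 0 by limma on either FPKM scale and 23 with library sizes that leave out haemoglobin. Lower genes, 2 in that fit, were 0, 0, 0, 0, 1, 1 and 0 in the same order, 1 without a filter and 4 at a mean of at least 1 CPM. Leaving out a library, which also drops the other term, gave 0 to 95 higher and 0 to 26 lower genes, with 0 higher without the DMM library of M04 or the sham library of M05, 4 higher without the DMM library of M05, and 26 lower without the sham library of M04. For M05 against M04, higher genes were 0, 69, 62, 21, 0, 0 and 35 and lower genes 0, 23, 124, 891, 0, 0 and 76 in that order, with 0 to 200 and 0 to 131 when a library was left out. These were 0 and 0 without the sham and 1 and 1 without the DMM library of M04, and 18 and 40 without the sham and 200 and 131 without the DMM library of M05. Called members, 2 higher, were 0 without the replicate block, 1 by DESeq2 (Ccl6), 0 without TMM factors, 0 by limma on either scale and 0 to 3 when a library was left out, where Ccr2 joined. Without TMM factors 1 member, Cxcr4, was lower (-0.58). Leaving out those factors shifts the median of all genes, by 0.11 for DMM against sham and by -0.24 for M05 against M04. Il1rn passed in 6 of 13 settings (0.43 to 0.83) and Ccl6 in 7 of 14 (0.41 to 0.74). DESeq2 gave no adjusted p to 35 of 39 members between the mice and to 15 between the operations. The cause of these changes was not tested. Members with few counts, such as Ptgs2 and Cxcl5, are limited by depth.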
